A study of Mus musculus with 8 samples.

Results

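The 9 hedgehog pathway genes described here were measured in cultured mouse forelimb buds: the ligand gene Shh, the receptor gene Ptch1, the ligand decoy gene Hhip, the co-receptor gene Boc, the transducer gene Smo, the inhibitor gene Sufu, and the transcription factor genes Gli1, Gli2 and Gli3. They were chosen by symbol, and all 9 were found among the 21692 genes of the deposited table. Each of the 8 RNA libraries came from forelimb buds of CD1 mouse embryos taken on gestation day 13 and kept 24 h in culture. The 4 vehicle libraries received dimethyl sulfoxide, and the 4 OPE libraries received a mixture of organophosphate esters, the flame retardants and plasticisers of house dust, diluted 1 in 300000. The libraries are called vehicle 1 to 4 and OPE 1 to 4. Whole buds were sampled, so every value is an average over all their cell types, and no label ties a library to a litter or culture of its own. A p-value here can therefore only be set against the spread among these libraries, which may be partly technical.

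Hedgehog ligands bind the receptor PTCH1, and BOC helps them to bind. Unbound PTCH1 holds the membrane protein Smoothened inactive. Ligand binding frees Smoothened, which acts in the primary cilium to release GLI2 and GLI3 from SUFU and from their processing into repressors. GLI activators then switch on Gli1, Ptch1 and Hhip, so these genes are widely used as readouts of the pathway, and Ptch1 and Hhip also act back as inhibitors of it. In the early limb bud Shh from the posterior margin sets the number and identity of digits. In the later skeleton Ihh from maturing chondrocytes signals to proliferating cartilage and to the perichondrium.

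The 8 libraries held between 14986793 and 22006738 reads counted to genes. Levels of 1 gene across libraries are given as CPM (reads scaled to the library total, which is corrected by TMM), and levels of different genes as FPKM (reads scaled to gene length and library total). Markers of limb mesenchyme (6 genes) summed to between 1032 and 1094 CPM with vehicle and between 1009 and 1135 CPM with OPE, and those of cartilage (5 genes) to between 7945 and 9443 and between 7957 and 8979 CPM, so the labelled tissue was present in both groups. Summed markers of 4 other cell types did not overlap between the groups and were lower with OPE. They were those of macrophages (8 genes, of which 6 passed the test below, 107 to 128 CPM against 13.2 to 43.0), of endothelium (7 genes, of which 1 passed, 235 to 297 against 111 to 213), of perichondrium and osteoblasts (5 genes, of which 4 were tested and 2 passed, 2825 to 3147 against 2352 to 2506) and, narrowly, of hypertrophic cartilage (4 genes, of which 3 passed, 109 to 175 against 85.0 to 109). Most of the perichondrium and osteoblast sum was Col1a1, which averaged 2906 CPM with vehicle and 2386 CPM with OPE and did not pass. Ihh, the marker of hypertrophic cartilage that did not pass, was higher with OPE, at 55.1 against 44.3 CPM. Sp7 is on both of these lists. None of the defining markers on these lists was at 0 in all libraries. In such bulk samples fewer cells of a type and less RNA per cell cannot be told apart. The part these cell types have in the values below was not tested.

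Promoters are shown first, since GLI proteins act on target genes through a short DNA consensus. Of the windows printed, those of Ptch1 and Hhip belong to targets, while Gli2 is grouped below with the genes that carry the signal. RefSeq promoter windows (build GRCm38.p6, 250 bases before to 50 after a start site) were matched for 6 of the 9 genes, namely Ptch1, Hhip, Smo, Sufu, Gli2 and Gli3. The 9-base GLI consensus GACCACCCA, searched on both strands, was in none of the 6 windows, and it was in 0.253% of all 32851 promoter windows. The 7-base core ACCACCC, which lies inside that consensus, was in the window of Gli2 alone, against 4.61% of all windows. The windows of Ptch1 and Hhip, the 2 tested genes with the lowest fold changes below, and of Gli2, the 1 with the core, read as follows. Capitals mark the core in Gli2, where it stands on the opposite strand, and in the other 2 a 9-base stretch with the fewest mismatches to the consensus. In Ptch1 another stretch of the window has as few.
Ptch1 (chr13:63565686-63565985, minus strand): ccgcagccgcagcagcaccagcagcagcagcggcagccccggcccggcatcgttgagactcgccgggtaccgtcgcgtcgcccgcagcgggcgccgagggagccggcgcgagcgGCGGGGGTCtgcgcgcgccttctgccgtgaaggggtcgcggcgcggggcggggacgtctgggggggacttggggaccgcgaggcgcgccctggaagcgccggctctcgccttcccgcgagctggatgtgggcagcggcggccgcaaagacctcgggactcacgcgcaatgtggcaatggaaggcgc
Hhip (chr8:80057959-80058258, minus strand): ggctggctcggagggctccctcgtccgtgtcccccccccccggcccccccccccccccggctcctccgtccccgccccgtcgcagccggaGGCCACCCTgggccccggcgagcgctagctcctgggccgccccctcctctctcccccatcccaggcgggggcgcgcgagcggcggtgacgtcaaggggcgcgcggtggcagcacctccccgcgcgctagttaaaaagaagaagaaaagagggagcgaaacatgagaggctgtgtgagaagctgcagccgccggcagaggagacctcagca
Gli2 (chr1:119053570-119053869, minus strand): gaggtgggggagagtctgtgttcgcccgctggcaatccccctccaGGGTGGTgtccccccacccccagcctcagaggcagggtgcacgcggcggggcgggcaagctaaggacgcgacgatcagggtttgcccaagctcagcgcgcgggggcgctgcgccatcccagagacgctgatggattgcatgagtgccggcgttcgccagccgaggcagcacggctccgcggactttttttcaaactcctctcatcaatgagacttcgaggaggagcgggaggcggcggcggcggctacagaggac

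The closest 9 bases differed from the consensus at 3 positions in Ptch1 and at 2 in Hhip and in Gli2. Of all windows 58.3% held a match with at most 2 mismatches, so such a match is common. Windows this short do not reach distant GLI sites, and nothing about GLI binding can be drawn from them. The RefSeq start of the Ptch1 window lies beyond the end of the gene in the deposited table. The windows were rich in G and C, with 76.3% in Ptch1, 73.7% in Hhip and 67.3% in Gli2, against a median of 52.7% over all windows.

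The transducing side of the pathway was well expressed, and its ligand Shh was nearly absent. With vehicle, Smo, the membrane transducer, was highest at 75.0 ± 1.31 FPKM (mean ± SD, n = 4). Boc, the co-receptor, followed at 62.2 ± 5.10 FPKM and Gli1, the activator that is itself a target, at 46.7 ± 2.78 FPKM. Gli3, the main source of GLI repressor, was at 27.6 ± 3.83 FPKM, Ptch1 at 25.1 ± 6.25 FPKM and Gli2, the main primary activator, at 24.4 ± 1.67 FPKM. Sufu came next at 19.3 ± 0.145 FPKM, then Hhip at 7.80 ± 0.682 FPKM and Shh at 0.0477 ± 0.0481 FPKM. The ranges of the 4 vehicle libraries overlapped between Gli3 and Ptch1 and between Ptch1 and Gli2, and they did not overlap between the other 6 pairs of neighbours in this order. Smo stood at the 95.2 percentile of vehicle FPKM among the 15517 genes tested, Gli1 at 90.8 and Hhip at 49.2.

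**Figure D1:**
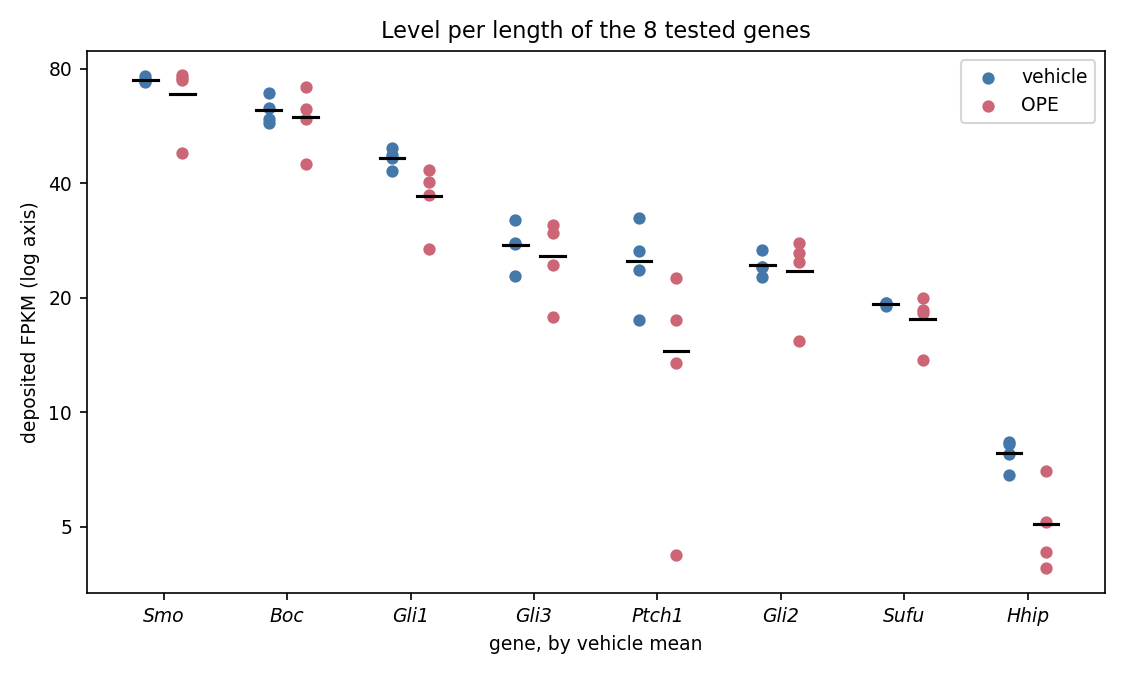
Deposited FPKM (log axis) of the 8 tested hedgehog genes, ordered by the vehicle mean, with 1 point for each library (4 vehicle, 4 OPE) and a bar at each group mean. Smo averaged 75.0 FPKM and Hhip 7.80 FPKM with vehicle, and the lowest OPE point of Ptch1 lies at 4.22 FPKM.

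The order depends on the gene lengths. The deposited length of Ptch1 is 4305 bases, while its exons in GENCODE M21 cover 14185 bases, and for Hhip the lengths are 4582 and 9076 bases. Per kilobase of GENCODE exons Boc led with 61.2 ± 5.41 CPM, ahead of Smo with 49.6 ± 0.809. On that scale Ptch1, at 7.49 ± 1.91, ranked below Sufu, at 11.1 ± 0.101. Hhip and Shh were the lowest on both scales.

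Of the 9 genes 8 had enough reads to be tested between OPE and vehicle. None had an edgeR p under 0.05 after Benjamini-Hochberg adjustment over the 15517 genes (quasi-likelihood test), where 0.477% of all genes tested passed. At an unadjusted p of 0.05 there were 2, Hhip and Gli1, against 13.2% of all genes. With DESeq2 1 member passed, Hhip, against 3.45% of all genes, and with limma-voom none did. All 8 log2 fold changes were below 0, as for 47.2% of all genes tested, with a median of -0.08 against 0.01 over all genes. By role, the targets Ptch1, Hhip and Gli1 gave -0.76, -0.57 and -0.29, while the 5 genes that carry the signal (Smo, Sufu, Boc, Gli2 and Gli3) gave values between -0.08 and -0.01. None of the 8 had every OPE value above, or every one below, all of its vehicle values, whereas 9.49% of all genes tested were separated in this way (5.44% with OPE lower).

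**Figure D2:**
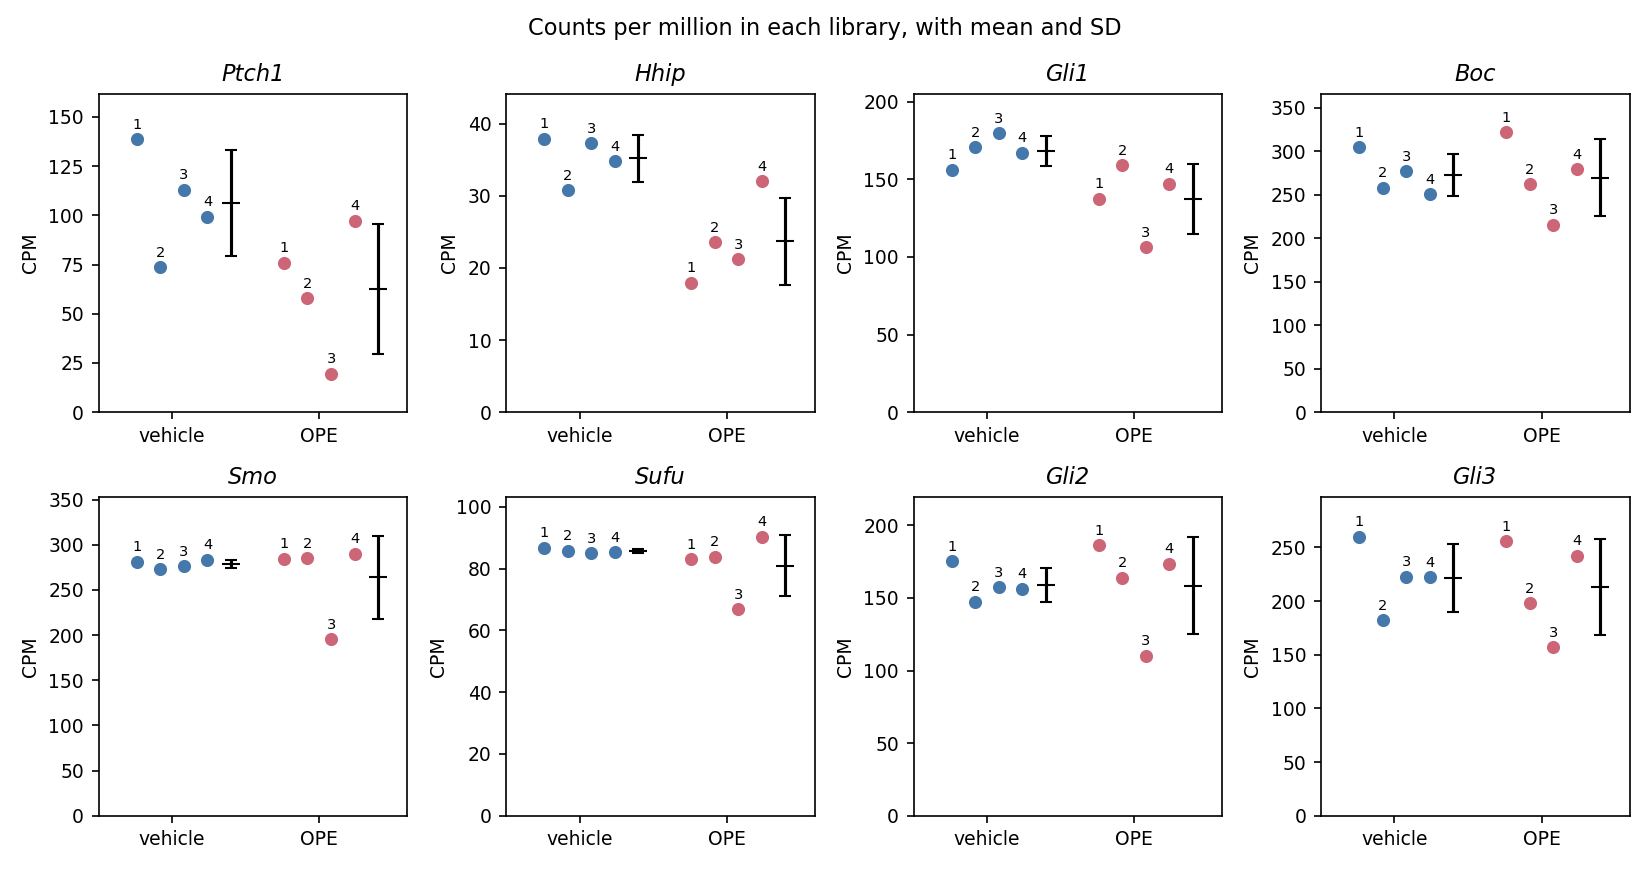
CPM in each library for the 8 tested hedgehog genes, with 1 numbered point for each library and the mean and SD of each group (n = 4) beside them. The ranges of the groups overlap in all 8 genes, while the OPE 3 point of Ptch1, at 19.6, and that of Smo, at 196, lie below every other point of their genes.

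Hhip encodes a membrane protein that binds hedgehog ligands and keeps them from their receptor. The gene lies on chromosome 8 (79966115 to 80058006, minus strand, mm10). It gave 37.9, 30.7, 37.2 and 34.8 CPM in vehicle 1 to 4 and 18.0, 23.6, 21.2 and 32.0 CPM in OPE 1 to 4. Of the 4 OPE libraries 3 were below every vehicle library, and OPE 4 lay just above vehicle 2. The group means were 35.2 ± 3.23 and 23.7 ± 6.02 CPM (SD, n = 4), a log2 fold change of -0.57 ± 0.16 (SE, edgeR adjusted p = 0.158). Its 95% interval ran from -0.93 to -0.21 without adjustment for the number of genes. The authors' deposited table gives Hhip a log2 fold change of -0.46 and an adjusted p of 0.0485, and 2.68% of the genes with an adjusted p in that table pass 0.05. Without OPE 4 the edgeR adjusted p was 0.0305, where 1.13% of all genes passed.

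Ptch1 encodes the receptor that holds Smoothened in check and is induced by the signal it restrains. The gene lies on chromosome 13 (63511533 to 63565520, minus strand). It gave 139, 73.8, 113 and 99.4 CPM in vehicle 1 to 4 and 76.0, 58.0, 19.6 and 97.2 CPM in OPE 1 to 4. OPE 3 had 18.4% of the vehicle mean, and OPE 4 had 91.5%. The groups overlapped because vehicle 2 was below OPE 1 and OPE 4. The log2 fold change was -0.76 ± 0.37 (edgeR adjusted p = 0.414) with a 95% interval from -1.57 to 0.05. Without OPE 3 the value was -0.46 (adjusted p = 0.404), so that library carries much of its size. The authors' deposited table gives Ptch1 a log2 fold change of -0.27 with an adjusted p of 0.568. DESeq2 run here on the same counts gave -0.76 for Ptch1 (adjusted p = 0.52) and -0.57 for Hhip. The deposited fold changes are thus on another scale, and their size cannot be set against those given here. Ptch1 was also the most variable of the 8 within the vehicle group, with a coefficient of variation of 25.5%, against 0.903% for Sufu and 1.63% for Smo.

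Gli1 encodes a GLI activator that needs the signal for its own transcription. The gene lies on chromosome 10 (127329889 to 127341589, minus strand). It gave 156, 171, 180 and 167 CPM in vehicle 1 to 4 and 137, 159, 106 and 147 CPM in OPE 1 to 4. In OPE 1, OPE 3 and OPE 4 it was below all vehicle libraries, while OPE 2 was slightly above vehicle 1. The means were 168 ± 9.66 and 137 ± 22.6 CPM, with a log2 fold change of -0.29 ± 0.12 (edgeR adjusted p = 0.321) and a 95% interval from -0.55 to -0.03. Without OPE 3 it was -0.19 (adjusted p = 0.222). Exons of Gli1 share 62 bases with Arhgap9 on the opposite strand. Reads of that gene amount to 2.74% of those of Gli1, and the sources used here do not state if strand was used in counting.

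**Figure D3:**
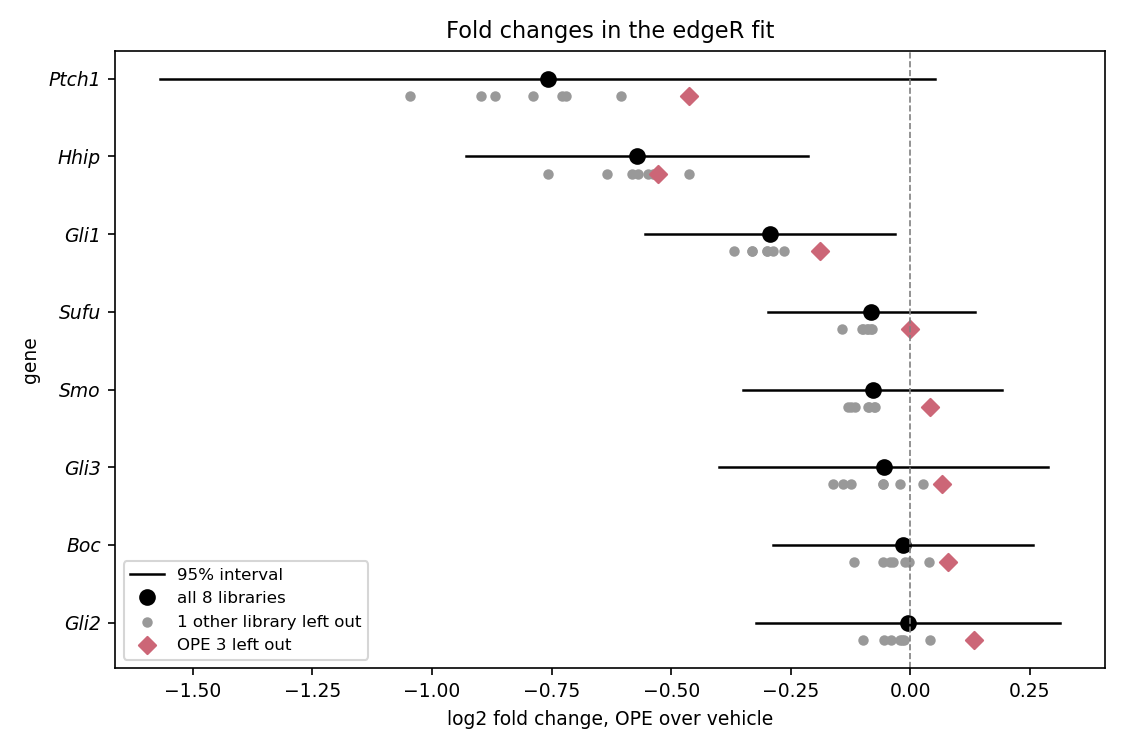
Log2 fold changes (OPE over vehicle) from the edgeR fit for the 8 tested hedgehog genes, with the 95% interval as a line. Small points below give the value when 1 library is left out, with a diamond for OPE 3, whose omission moves Ptch1 from -0.76 to -0.46 and brings Smo, Gli3, Boc and Gli2 above 0.

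The genes that receive and carry the signal showed small differences. Smo (chromosome 6, 29735694 to 29761365, plus strand) gave 281, 273, 277 and 283 CPM in vehicle 1 to 4 and 285, 285, 196 and 290 CPM in OPE 1 to 4. OPE 1, 2 and 4 were slightly above all vehicle libraries and OPE 3 far below them. The log2 fold change was -0.08 ± 0.12 (edgeR adjusted p = 0.856), with a 95% interval from 0.785-fold to 1.14-fold, and without OPE 3 it was 0.04. Sufu, whose product binds and restrains GLI proteins (chromosome 19, 46396896 to 46488804, plus strand), gave between 85.0 and 86.8 CPM with vehicle. Its OPE values were 82.9, 83.8, 66.9 and 90.3 CPM in OPE 1 to 4, so that 3 were below and 1 was above the vehicle range. The log2 fold change was -0.08 ± 0.10 (adjusted p = 0.797), with an interval from 0.813-fold to 1.10-fold. Boc (chromosome 16, 44485045 to 44558897, minus strand) ranged from 251 to 304 CPM with vehicle and from 215 to 322 CPM with OPE. Both extremes of Boc were OPE libraries, OPE 3 below and OPE 1 above, and its log2 fold change was -0.02 ± 0.12 (adjusted p = 0.977).

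Gli2 and Gli3 encode the GLI proteins that respond first to the signal. Gli2 (chromosome 1, 118834132 to 119053619, minus strand) gave 175, 147, 157 and 156 CPM in vehicle 1 to 4 and 186, 164, 110 and 174 CPM in OPE 1 to 4. Gli3 (chromosome 13, 15463235 to 15730026, plus strand) gave 260, 182, 223 and 223 CPM in vehicle 1 to 4 and 256, 198, 157 and 242 CPM in OPE 1 to 4. In both genes OPE 3 was the lowest of the 8 libraries and the other 3 OPE libraries were at or above the lowest vehicle library. The log2 fold changes were -0.01 ± 0.14 for Gli2 (edgeR adjusted p = 0.994) and -0.06 ± 0.16 for Gli3 (adjusted p = 0.927). Their 95% intervals, 0.799-fold to 1.24-fold and 0.758-fold to 1.22-fold, leave room for changes of that size in either direction. Exons of Gli3 share 188 bases with Gm6556 on the opposite strand, a gene with 0.577% as many reads. Transcripts of Gli1, Gli2 and Gli3 share no stretch of 50 bases, so reads of that length or more would not be split between these paralogs.

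Shh, the limb's posterior patterning ligand, was at the edge of detection (chromosome 5, 28456815 to 28467101, minus strand). It had 5, 0, 1 and 4 reads in vehicle 1 to 4 and 0, 5, 3 and 1 reads in OPE 1 to 4, too few for the filter on low counts. One library in each group had no read, which allows at most 0.153 CPM in vehicle 2 or 0.138 CPM in OPE 1 (3 reads, counting error only). The ratio of depth-scaled reads, OPE over vehicle, was 1.10, with an exact 95% binomial interval from 0.397 to 3.02 that covers counting error only. Mean CPM gave p = 0.771 in an exact two-sided permutation test with 70 possible assignments (n = 4 per group), and a difference could not be detected with so few reads. The other ligand Ihh, an inducer of Ptch1 and Hhip in cartilage and perichondrium, had 44.3 ± 5.91 CPM with vehicle and 55.1 ± 12.0 with OPE (log2 fold change 0.32 ± 0.15, edgeR adjusted p = 0.417). The ligand gene Dhh had 37 reads with vehicle and 22 with OPE and was not tested.

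The libraries of the OPE group differed from one another in which genes were low. OPE 3 was the lowest of all 8 libraries in 7 of the 8 tested genes, against 26.8% of all genes tested, and Hhip was the exception, where OPE 1 was lowest. The median of the 8 relative to the vehicle mean was -0.52 on the log2 scale in OPE 3, and -0.01, -0.07 and 0.05 in OPE 1, 2 and 4. Over all genes tested that median was 0.00 in each of the 4. OPE 3 stood apart over all genes too. The chi-square of its counts, per degree of freedom, was 75.6, 42.9 and 57.2 against OPE 1, 2 and 4. No other pair within a group exceeded 18.6. Summed erythroid markers were at 975 CPM in OPE 3, and at 414, 450 and 382 CPM in OPE 1, 2 and 4. With vehicle they were at 328 to 496 CPM. The part of these differences in the hedgehog values was not tested. OPE 3 also ran lower in longer genes. The trend of log2 CPM on the deposited gene length came to -0.14 at the length of Smo, -0.20 at that of Ptch1 and -0.42 at that of Gli3 in this library, beside measured differences of -0.51, -2.40 and -0.49. With GENCODE exonic lengths the trend at Ptch1 was -0.40. None of the 8 genes passed with either length trend removed (2.08% and 1.6% of all genes did), without OPE 3 (1.95%) or without both OPE 1 and OPE 3 (0.531%). In OPE 1, by contrast, Boc, Gli2 and Gli3 were 0.24, 0.23 and 0.22 above the vehicle mean while Hhip was at -0.96. For Hhip OPE 1 was lowest, then OPE 3, OPE 2 and OPE 4. OPE 1 was also lowest for the summed macrophage and endothelial markers, at 13.2 and 111 CPM. In OPE 2, 3 and 4 the sums were 26.7, 43.0 and 41.6 CPM for macrophages and 170, 174 and 213 CPM for endothelium. Neither sum followed the whole order of Hhip, and the part of these cell types in its values was not tested.

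**Figure D4:**
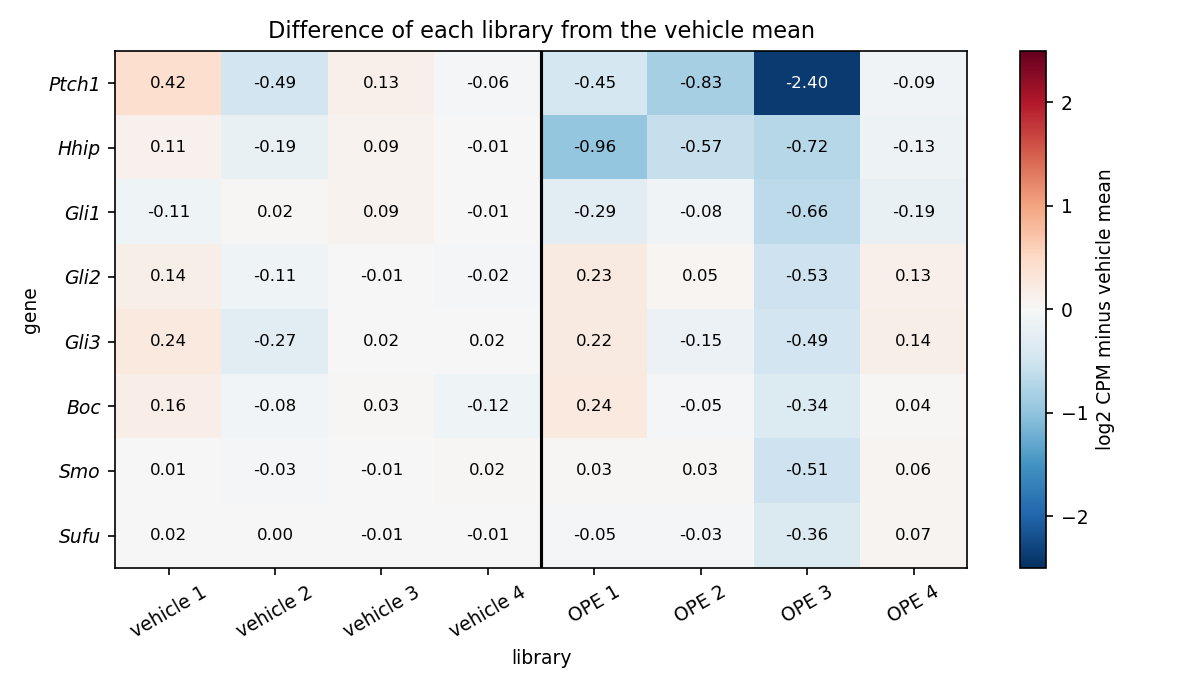
Log2 CPM of each library minus the vehicle mean, for the 8 tested hedgehog genes (rows) in the 8 libraries (columns), with blue below and red above the vehicle mean. OPE 3 is below 0 in every row and reaches -2.40 for Ptch1, while OPE 1 is low for Hhip, at -0.96, and above 0 for Gli2, Gli3 and Boc.

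The other genes of the pathway were taken as 7 lists by role, of which 122 genes were tested. Of these 1 fell, Fgf4, and none rose, against 0.438% lower and 0.0387% higher among all genes tested. Their median log2 fold change was 0.04, beside 0.01 over all genes. Among 12 genes of ligand processing and release none passed, and Scube1, which helps to release the ligand, gave -0.36 ± 0.15 (edgeR adjusted p = 0.339). None of the 5 receptors and co-receptors reported here passed. Their log2 fold changes were all above 0 and at most 0.14, with the co-receptor gene Cdon at 0.14 ± 0.12 (adjusted p = 0.675) and Lrp1, an endocytic receptor, at 0.13 ± 0.12 (adjusted p = 0.747). None of 25 genes of the primary cilium and its transport passed, with a median of 0.03 and values between -0.26 and 0.21. The smallest p on that list was that of Ofd1, a centriole gene, which gave 0.21 ± 0.10 (adjusted p = 0.40), and Dzip1 followed at 0.18 ± 0.10 (adjusted p = 0.491). None of 20 kinases and proteolysis factors that act on GLI proteins passed, with a median of -0.00. Prkaca, the catalytic subunit of protein kinase A that marks GLI proteins for processing, gave -0.17 ± 0.09 (adjusted p = 0.446), and Adrbk1, the older symbol of Grk2, gave 0.14 ± 0.08 (adjusted p = 0.506). None of 10 GLI co-factors passed, where the zinc finger genes Zic2 and Glis2 gave 0.37 ± 0.14 and -0.13 ± 0.10 (adjusted p = 0.297 and 0.619).

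The loop between the Shh-producing zone and the apical ridge held the largest fold change of the lists in each direction, Fgf4 at -1.77 and Fgf17 at 0.83. Fgf4, a ridge growth factor that sustains Shh in the early bud, had 2.22 ± 0.506 CPM with vehicle and 0.649 ± 0.0731 CPM with OPE, without overlap. Its reads were few, with 30, 45, 43 and 65 in vehicle 1 to 4 and 14, 10, 8 and 11 in OPE 1 to 4. Fgf4 fell by 1.77 ± 0.27 on the log2 scale (edgeR adjusted p = 0.0264). The call was lost in 6 of 8 fits that left out 1 library, namely without vehicle 1 to 4, OPE 1 or OPE 2, with adjusted p from 0.0189 to 0.119 over the 8. None of the other 26 genes of that loop passed. Of all 27, 18 were above 0 and 9 below, with a median of 0.12. Fgf17 and Fgf8 gave 0.83 ± 0.26 and 0.60 ± 0.42 (edgeR adjusted p = 0.201 and 0.598). Both were at low levels. Fgf17 had 1.21 ± 0.178 CPM with vehicle and 2.16 ± 0.532 CPM with OPE, and Fgf8 had 0.460 ± 0.266 and 0.689 ± 0.107 CPM. Summed markers of the apical ridge (4 genes) overlapped, at 25.6 to 29.2 CPM with vehicle and 20.2 to 30.4 CPM with OPE. Fgf4, at 2.22 CPM, and Fgf8, at 0.460 CPM, were a small part of the vehicle sum, and the rest was Sp8 and Dlx5. Of the 4 markers 3 had log2 fold changes below 0, Fgf4 among them, and the median was -0.33. Among 23 other reported targets, including genes of the loop between Ihh and parathyroid hormone-related protein, none passed and the median was -0.05. Nkx3-2, a cartilage transcription factor that responds to hedgehog, gave -0.33 ± 0.10 (adjusted p = 0.189), and the survival gene Bcl2 gave -0.40 ± 0.13 (adjusted p = 0.21). Of the list genes, Fgf4, Nkx3-2, Etv5 and Hhat were lower with OPE without overlap between groups. Ofd1, Fgf17, Foxd1, Hoxd10, Hoxd12 and Hoxd13 were higher without overlap. Of all genes tested 9.49% had no overlap, in either direction. The lists were written with earlier results of these data known, so their counts are descriptions.

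**Figure D5:**
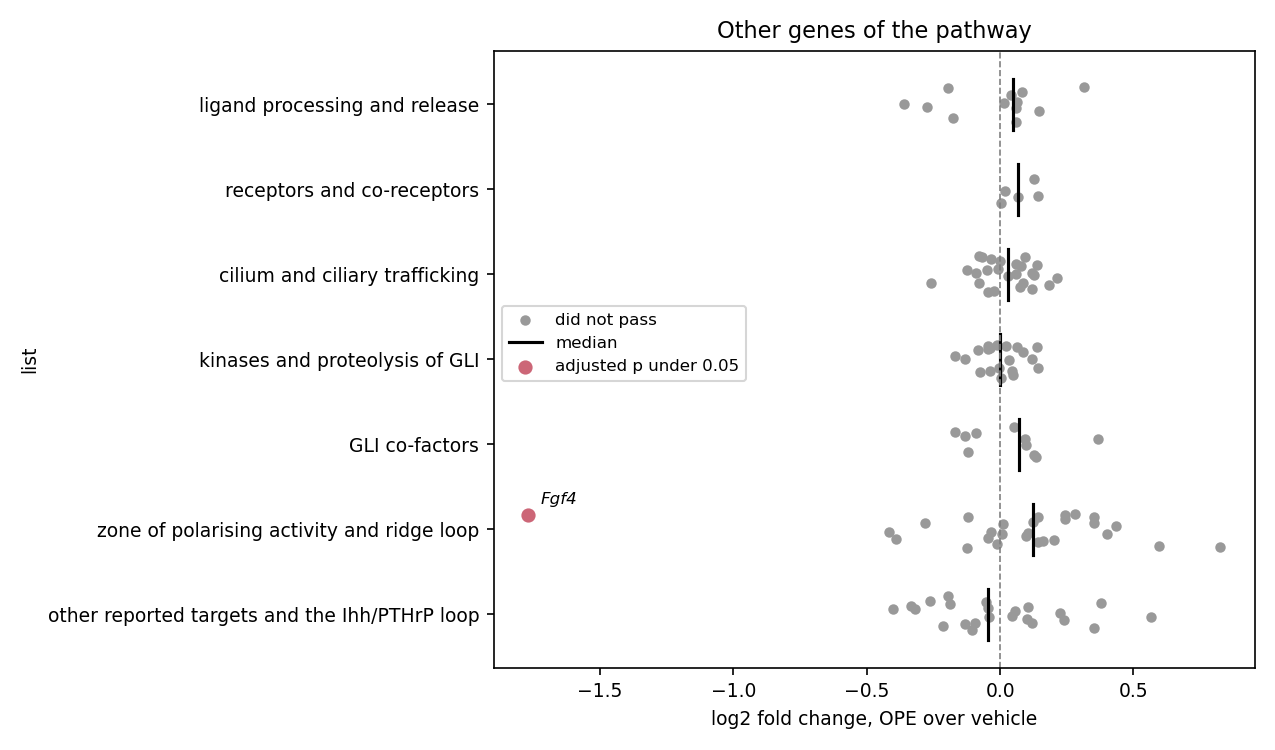
Log2 fold changes (OPE over vehicle, edgeR) of the 122 other genes of the pathway, in 7 lists by role, with 1 point for each gene and a bar at each list's median. Fgf4 at -1.77 passed an adjusted p of 0.05, and the other points did not.

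For the 3 targets the genes of most similar pattern were found by the mean absolute difference of mean-centred log2 CPM over the 8 libraries. This measure takes in the group difference and the libraries' depth and composition alike. It is not scaled to a gene's spread, so genes of unlike spread lie far apart even where they rise and fall together. The SD of the centred values was 0.24 for Gli1, 0.40 for Hhip and 0.87 for Ptch1. Hhip was closest to Fhdc1, Brip1 and Ptplad2, at 0.07, 0.08 and 0.09, against a median of 0.39 over 6891 candidates. Gli1 was closest to Arrb1, Nacc1 and Senp1, each at 0.05, against a median of 0.25 over 11072 candidates. Ptch1 was closest to Syt14, Pdpr and Adamts12, at 0.13, 0.15 and 0.19, against 0.66 over 1392 candidates. None of these 9 genes passed between OPE and vehicle (edgeR adjusted p between 0.203 and 0.743). Among the targets themselves, Gli1 differed from Hhip by 0.23 and ranked 748 of the 6891 candidates for Hhip, while Ptch1 differed from Hhip by 0.43 and ranked 4276. For Gli1, Hhip ranked 4526 of the 11072 candidates, and Ptch1, which differed from it by 0.51, ranked 10665. By this measure Smo, Sufu, Gli2, Boc and Gli3 stood at ranks 273, 540, 1584, 2794 and 3859 for Gli1, ahead of these targets. Since spread enters the measure, these ranks do not show which genes follow the ups and downs of Gli1 best. For Hhip, Gli3 ranked 1242 and Gli2 1946, behind Gli1 and ahead of Ptch1.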

How the data were processed

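Per the labels' protocols, mRNA of the 8 libraries (4 vehicle, 4 OPE) was captured on poly-T beads and reverse transcribed from random hexamers. STAR 2.5, HTSeq 0.6.1, CASAVA 1.8, DESeq2 (version listed as 2) and the mm10 build are listed in the submitters' processing notes without their roles. The authors deposited raw read counts, counts divided by a size factor (a signal between 0.803 and 1.25 reads per unit), FPKM, log2 fold changes and p-values in 1 table. The deposited adjusted p is missing for 3933 genes.

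Differences in counts were tested in R 4.3.3 by edgeR 4.0.16 (TMM, filterByExpr, robust quasi-likelihood fit, group as the only term, two-sided), adjusted over all 15517 genes tested. The SE is the log2 fold change divided by the square root of F, and 95% intervals use the fit's degrees of freedom. Plotted log2 CPM values have a prior count of 2. Alternatives were run with DESeq2 1.42.0, limma 3.58.1 (voom), other scalings and filters, gene-length trends removed by a spline with 5 degrees of freedom, the replicate number as a block, and each library left out. The steps were tested on simulated data. Libraries of the same group all differed by more than sampling noise (the lowest chi-square, divided by its degrees of freedom, was 5.03). The highest, 75.6, was between OPE 1 and OPE 3.

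The members, lists, tests and alternatives were chosen with earlier results of these data known. Named were all 9 members, from each list the genes that passed or otherwise the 2 of smallest p, and 3 genes of most similar pattern for each of Gli1, Ptch1 and Hhip, among genes of at least 1 CPM whose spread was at least 50% of the member's. Named outside this rule were Dhh, Fgf8, Fgf17, Col1a1, Sp7, Sp8, Dlx5, the list genes without overlap between groups, and in the closing section Etv5, Hoxd10, Sall1 and Grem1. Older symbols were matched through RefSeq for 2 list genes. Results for 2 list genes are not reported here, and the list counts leave them out. A comparison of GLI protein sequences was planned and not run.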

Additional observations from a re-analysis of the deposited data

Results flagged for a closer look

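Within the OPE group the Smo value of OPE 3 stood far from the other 3. It was 196 CPM, while the others lay between 285 and 290 CPM, and the gap to the nearest of them was 0.943 of the group's whole range, above the 95% limit of Dixon's test for 4 samples. It was the 1 such value among 16 sets of 4 values (8 genes in 2 groups), and chance alone gives about 1 in 20. No other member had such a gap, the 19.6 CPM of Ptch1 in OPE 3 included, since its other OPE values were spread widely. OPE 3 also stood apart from the other OPE libraries over all genes, as given above.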

How the results depend on the processing

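Ptch1, Hhip and Gli1 stayed below 0 in all 20 alternatives, with Ptch1 between -1.05 and -0.45 and Gli1 between -0.37 and -0.14, and neither of these 2 passed in any. Hhip passed in 2 of 20, with DESeq2 (adjusted p = 0.0434) and without OPE 4 (0.0305), and its adjusted p ranged from 0.0305 to 0.389. The count of members that passed was therefore 1 with DESeq2, and 0 to 1 over the fits that left out 1 library. Differences near 0 changed sign. With the gene-length trend removed Boc gave 0.053, Gli2 0.061 and Gli3 0.020, and with GENCODE lengths, chosen after seeing the data, Boc gave 0.037 and Gli2 0.048. Over the fits that left out 1 library Boc ranged from -0.12 to 0.078, Smo from -0.13 to 0.041, Gli2 from -0.098 to 0.13 and Gli3 from -0.16 to 0.066, above 0 without OPE 3 for these 4 and without vehicle 1 for Boc, Gli2 and Gli3. Without both OPE 1 and OPE 3, also chosen after seeing the data, Smo gave 0.047, Sufu 0.024 and Gli2 0.087. None of these passed, and their cause was not tested.

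Over all genes 131 passed with library totals, 136 without the filter, 536 with DESeq2, 322 with the gene-length trend removed and 247 with GENCODE lengths, against 74, and leaving out 1 library gave 7 to 308. Of the pathway lists 1 gene passed, against 3 with DESeq2, 5 with the length trend removed, 3 with GENCODE lengths, 0 without both OPE 1 and OPE 3, and 0 to 5 without 1 library. Those added were Etv5, Hoxd10, Sall1 and Grem1 with the length trend removed or without OPE 3, and Etv5 and Hoxd10 with DESeq2, with GENCODE lengths or without OPE 4. Of the promoter windows 1 held the core and 3 a consensus with at most 2 mismatches.

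With the replicate number as a block 62 genes passed, none of them a member, and 0 list genes did, since Fgf4 reached an adjusted p of 0.0519. Deviations of same-numbered libraries correlated at 0.01 to 0.31, and 2 of 4 libraries in each group correlated best with their own number, so the numbers were not taken to pair the samples. Depth limits Shh most, with 10 reads in the vehicle and 9 in the OPE group.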
